A study of Arabidopsis thaliana with 9 samples.

Results

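The comparison described here set leaves treated with the fungal compound BrvC for 48 h against leaves given the solvent alone, across every gene that could be named on the arrays. Leaves of similar size were cut from soil-grown Arabidopsis thaliana plants of ecotype Col-0, aged 30 days per one label and grown for 4 weeks per another, and 10 to 15 of them made up 1 sample. The treated leaves lay in Murashige and Skoog medium with 50 µM BrvC in the dark, and the control leaves in the same medium with 0.05% DMSO. Each group had 3 arrays, 1 per biological replicate as the labels call it, and 3 further arrays of leaves treated for 6 h entered the fit to estimate the spread. All groups shared the cutting from the plant, and no group was left uncut. The labels do not give how long the control leaves stayed in the dark, so the effects of BrvC and of time in the dark cannot be told apart here. Of 38408 entries in the value table, 16722 were paired with exactly 1 gene, and with 1 entry kept per gene 16550 genes were compared. A symbol was known for 1797 of them, and 14753 were known by their locus name alone and were kept. The values were log2 signals, which describe a gene's change between groups and do not rank genes by transcript number.

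Brevicompanines are diketopiperazine alkaloids made by fungi. A cut leaf kept in the dark loses its light supply and its connection to the plant, and it is known to take its chloroplasts apart, break down protein and lipid, and reuse the nitrogen and carbon set free. Leaves that meet a foreign compound are also known to raise enzymes that conjugate it, such as glutathione transferases and sugar transferases, and leaves that sense microbial molecules raise WRKY transcription factors and ubiquitin ligases within a short time.

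Arrays of one group resembled each other more than arrays of different groups. Pearson correlations over the 16550 genes lay between 0.978 and 0.984 among control arrays, between 0.986 and 0.989 among 48 h arrays, and between 0.961 and 0.977 across the groups. The first principal component of the 6 arrays held 49.5% of the variance and separated the groups, with scores of -31.2, -41 and -23.1 for control replicates 1 to 3 and of 30.9, 29.3 and 35.1 for the 48 h replicates. The second component held 23.4% and set replicate 3 of both groups apart, with -38.8 in control and -21.6 at 48 h against 8.9 to 19.9 in the other 4 arrays. Leaving out both replicate 3 arrays gave 816 higher and 792 lower genes, a choice made after seeing the data.

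**Figure D1:**
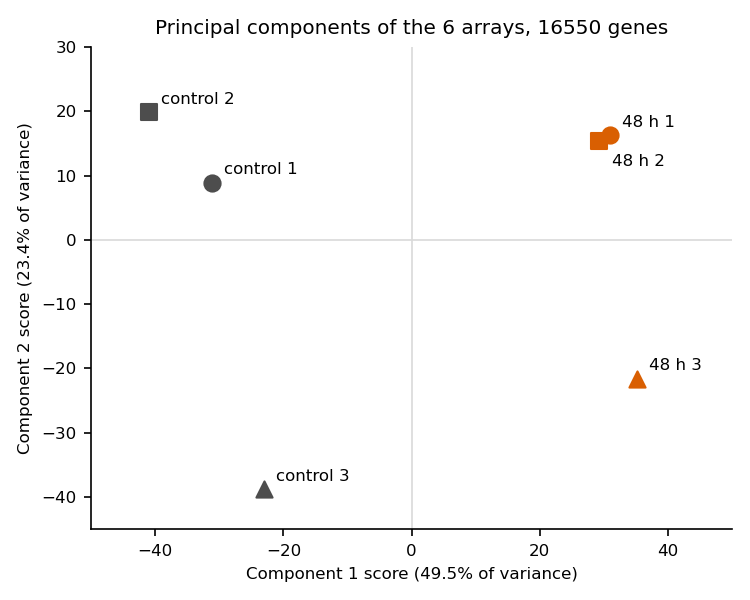
Scores of the 6 arrays on the first (x axis) and second (y axis) principal component of the log2 signals of 16550 genes; grey marks are control, orange marks 48 h with BrvC, and the shape gives the replicate. Control lies between -41 and -23.1 on the first component and 48 h between 29.3 and 35.1, and both replicate 3 arrays lie below 0 on the second.

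After 48 h with BrvC, 898 genes were higher and 864 lower than in control, which is 10.6% of all genes tested (5.43% higher and 5.22% lower; limma moderated test, two-sided, Benjamini-Hochberg adjusted p under 0.05). The median log2 difference over all genes was -0.06, and 56.8% of the differences lay below 0. Among the 8635 genes with a control mean under a log2 signal of 4 that share was 66.0%, and among the others 46.8%. At least 2-fold differences were found among these for 375 higher and 433 lower genes, at least 4-fold ones for 48 and 59, and at least 8-fold ones for 14 and 5. For 25.1% of all genes the values of the 48 h arrays and of the control arrays did not overlap. With the replicate number as a block, fitted to the 6 arrays, 1170 genes were higher and 1142 lower. Genes known by locus alone made up 789 of the higher and 735 of the lower genes, or 10.3% of their number, and genes with a symbol 109 and 129, or 13.2%. Of the 48 genes with at least 4-fold rises 43 had a locus name alone, a share close to that among all genes (14753 of 16550). On the 5 nuclear chromosomes between 10.4% and 11.2% of genes were called, and of the 63 plastid genes 3.17%.

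**Figure D2:**
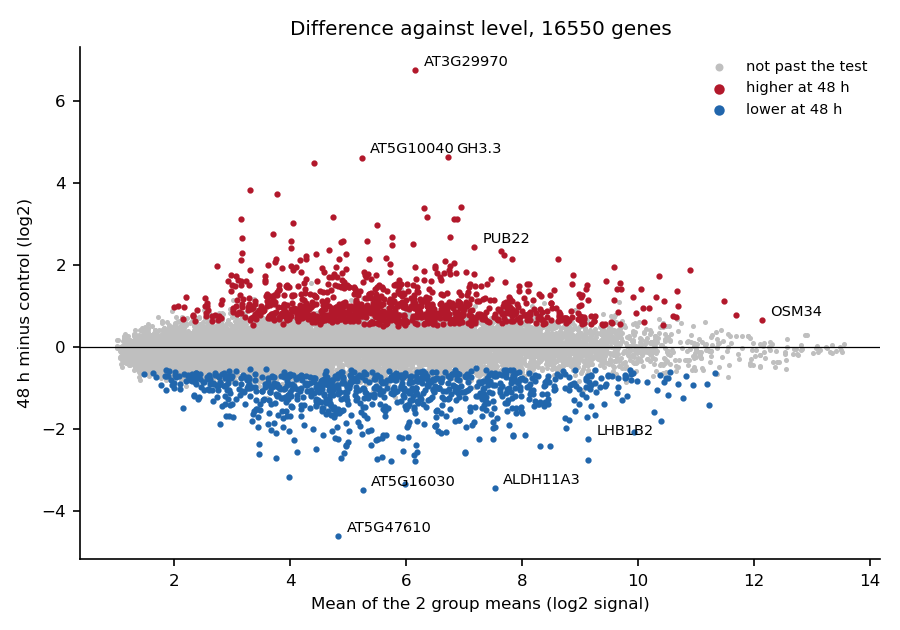
Each point is 1 of 16550 genes, with the mean of its group means in log2 signal on the x axis and the 48 h minus control difference in log2 on the y axis; red points were higher (898) and blue points lower (864) in limma at an adjusted p under 0.05, and grey points did not pass. AT3G29970 stands above all other genes at 6.74 and AT5G47610 below them at -4.60.

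The largest rise was that of AT3G29970, which carries no symbol or name in the tables used here. Its log2 signal was 2.54, 2.82 and 2.99 in the control arrays and 9.55, 9.10 and 9.94 at 48 h. The lowest treated array was far above the highest control array, and the difference was 6.74 (SE 0.23, 107-fold, limma adjusted p = 5.65e-09). Its control signals were low, a range in which differences of such array signals are compressed and a fold change is inexact. GH3.3, an enzyme that joins auxin to amino acids, read 3.60, 4.96 and 4.69 in control and 8.99, 9.18 and 8.93 at 48 h. The control arrays of GH3.3 were spread more widely than the treated ones, and the groups did not overlap (4.62, SE 0.28, 24.6-fold, limma adjusted p = 6.72e-07). The locus-only gene AT5G10040 read 3.07, 3.07 and 2.63 in control and 7.91, 7.17 and 7.54 at 48 h, a difference of 4.62 (SE 0.24, limma adjusted p = 2.95e-07).

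The other 12 of the 15 largest rises all belonged to genes known by locus alone, as did 14753 of the 16550 genes tested. AT1G12805 rose from 2.12, 2.37 and 2.01 to 6.32, 6.43 and 7.21, a difference of 4.49 (SE 0.24). AT5G66985 rose from 1.17, 1.59 and 1.43 to 4.87, 5.65 and 5.13, a difference of 3.82 (SE 0.24). The groups of both genes were far apart. AT2G17850 rose by 3.73, AT5G26280 by 3.41, AT4G39675 by 3.38, AT3G46190 by 3.17 and AT3G03270 by 3.16. AT4G24110, AT4G12090 and AT4G33560 each rose by 3.12, AT3G44510 by 3.03 and AT1G05700 by 2.98. In 8 of the 15 genes, AT3G29970 and AT5G10040 among them, the control mean was under a log2 signal of 4, so that their folds and their order are inexact in the same way. For all 30 genes with the largest rises and falls the limma adjusted p was 0.000172 or lower, and at least 1.61 on the log2 scale separated the nearest arrays of the 2 groups. That the groups did not overlap was a condition for naming them.

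The largest fall was that of AT5G47610, also a gene without a name here. It read 7.17, 6.81 and 7.41 in control and 2.78, 2.48 and 2.34 at 48 h. All treated arrays were low and close together, and the difference was -4.60 (SE 0.20, 24.2-fold lower, limma adjusted p = 5.34e-08). ALDH11A3 is a non-phosphorylating glyceraldehyde-3-phosphate dehydrogenase, which makes NADPH in the cytosol. It read 9.03, 9.16 and 9.54 in control and 5.30, 5.94 and 6.19 at 48 h, with no overlap (-3.44, SE 0.22, limma adjusted p = 1.11e-06). FAMT, a methyltransferase that acts on farnesoic acid, read 6.22, 6.57 and 5.89 in control and 3.76, 3.73 and 3.09 at 48 h (-2.70, SE 0.23). Its lowest values came from replicate 3 in both groups.

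Among the other large falls, AT5G16030 fell by 3.49, AT2G23840 by 3.33 and AT3G62950 by 3.17 on the log2 scale. The remaining locus-only genes had differences of -2.78 for AT2G46780, -2.77 for AT4G15430, -2.76 for AT1G62510, -2.73 for AT4G21650 and -2.70 for AT5G15780. They were followed by AT1G64500 (-2.68), AT1G56060 (-2.63), AT2G05310 (-2.59) and AT2G41250 (-2.59). AT1G56060 had the widest control values of these, 7.50, 8.30 and 6.56, against 4.87, 4.95 and 4.65 at 48 h. In 6 of the 15 genes the 48 h mean was under a log2 signal of 4. Of the 30 genes, 27 had a locus name alone, a share close to that among all genes (14753 of 16550).

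**Figure D3:**
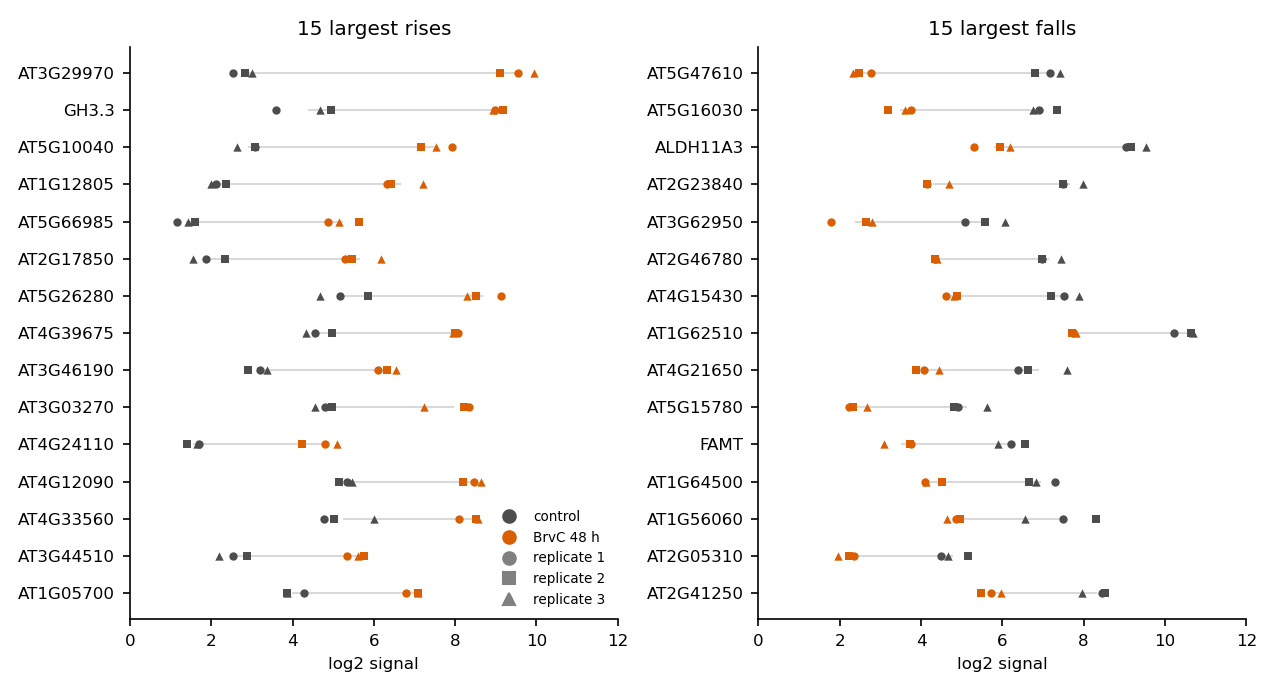
Log2 signal (x axis) of the 15 genes with the largest rises (left) and falls (right) in each array; grey marks are control, orange marks 48 h, shapes give the replicate and grey lines join the group means. No orange mark crosses the grey marks of its gene, and the nearest arrays of the 2 groups are at least 1.61 apart.

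Nuclear genes of the photosystems and their antenna fell. Of 8 measured members 6 were lower and none higher, against 5.22% lower and 5.43% higher among all genes. The median log2 difference was -1.43 against -0.06 over all genes. In whole leaves fewer cells rich in chloroplasts and less RNA per such cell cannot be told apart. LHB1B2, a chlorophyll-binding antenna protein of photosystem II, read 9.99, 10.50 and 10.27 in control and 8.00, 8.31 and 7.75 at 48 h. The groups were well apart, and the difference was -2.23 (SE 0.20, 4.69-fold lower, limma adjusted p = 1.44e-05). PSBY, a small photosystem II subunit, read 7.34, 7.38 and 8.19 in control and 5.45, 5.65 and 5.55 at 48 h (-2.09, SE 0.23). PSBW, another small subunit of photosystem II, read 10.25, 10.44 and 9.55 and then 8.49, 8.75 and 8.03 (-1.66, SE 0.24). Replicate 3 was high for PSBY in control and low for PSBW in both groups, and neither gene's groups overlapped.

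The photosystem I subunits PSAN (-1.48) and PSAE-1 (-1.38) fell as well. The 3 measured copies of the antenna protein LHCB4 gave different values, -1.0 for LHCB4.2, -0.68 for LHCB4.1 (limma adjusted p = 0.0658, and 0.025 with the replicate number as a block) and 0.16 for LHCB4.3 (adjusted p = 0.687). The call of LHCB4.2 was lost without control replicate 3 (-0.80), 48 h replicate 1 (-0.76) or 48 h replicate 2 (-0.99), and the other 5 calls held with each single array left out.

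Of 5 measured nuclear genes of electron transport and ATP synthesis 2 fell, against 5.22% of all genes. The list median was -0.45. ATPC1, the gamma subunit of the plastid ATP synthase, read 7.56, 7.77 and 7.22 in control and 6.56, 6.63 and 6.08 at 48 h (-1.09, SE 0.20, limma adjusted p = 0.00312). NdhL, a subunit of the chloroplast NADH dehydrogenase-like complex, fell by 0.82 on the log2 scale. The 3 members that did not pass were NdhN (-0.45), PGRL1B (-0.33) and PIFI (-0.28).

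All 3 measured Calvin cycle genes and the 1 measured photorespiration gene were lower, against 5.22% of all genes. PRK, the phosphoribulokinase that makes the acceptor for carbon dioxide, read 6.20, 6.31 and 6.36 in control and 4.17, 4.47 and 3.91 at 48 h. These control arrays were very close together, and the difference was -2.11 (SE 0.21, limma adjusted p = 2.89e-05). RCA, which activates Rubisco, read 9.90, 10.11 and 9.69 and then 8.55, 8.63 and 8.27 (-1.42, SE 0.18). SBPASE, a phosphatase of the cycle, had -0.83 (limma adjusted p = 0.0318), and its call was lost without control replicate 1 (-0.73) or 2 (-0.84) and without 48 h replicate 1 (-0.77) or 3 (-0.63). HPR, the peroxisomal hydroxypyruvate reductase of photorespiration, read 9.67, 9.59 and 9.26 in control and 7.17, 7.25 and 6.91 at 48 h. It fell by 2.40 on the log2 scale (SE 0.18, limma adjusted p = 2.89e-06), with replicate 3 the lowest of both groups.

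**Figure D4:**
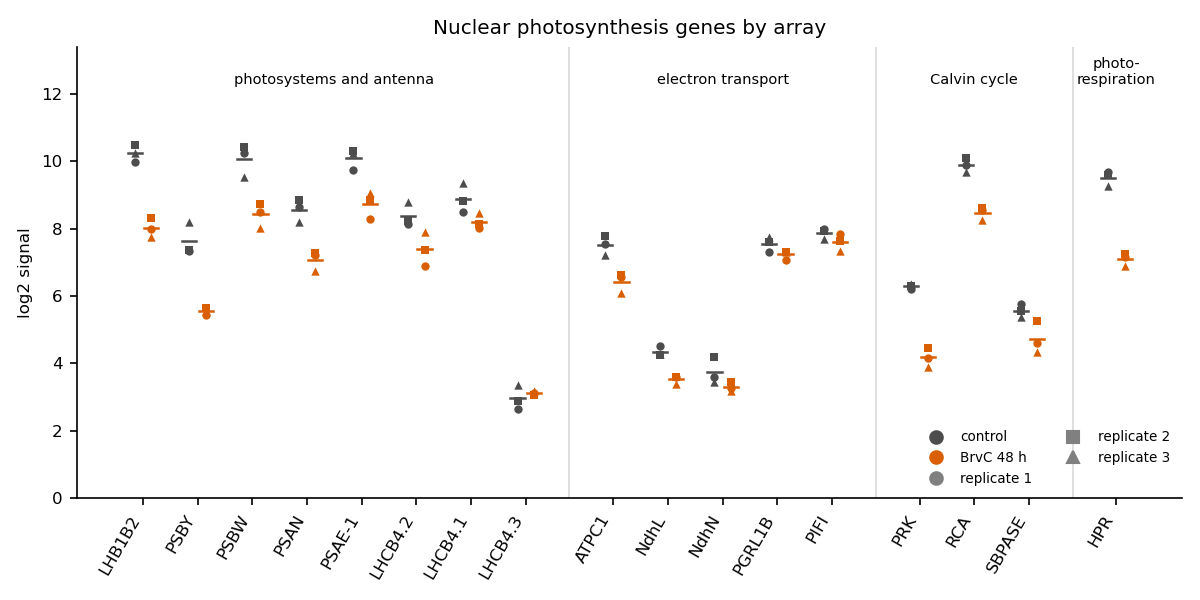
Log2 signal (y axis) in each array of the 17 measured nuclear genes of photosynthesis and photorespiration, grouped by role; grey marks are control, orange marks 48 h with BrvC, shapes give the replicate and short bars are group means. The orange marks lie below the grey ones for LHB1B2 (-2.23), PRK (-2.11) and HPR (-2.40), and the groups overlap for LHCB4.3, PGRL1B and PIFI.

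A further 15 genes of thylakoid and plastid proteins, grouped by name after their values were seen, had a median of -1.06, with 11 lower and 2 higher. Because of that grouping the counts are descriptions, beside 5.22% lower and 5.43% higher among all genes. TAPX, the ascorbate peroxidase of the thylakoid, read 9.15, 9.12 and 9.06 in control and 6.90, 7.04 and 6.98 at 48 h. The arrays of each group were very close together, and the difference was -2.13 (SE 0.15, limma adjusted p = 1.83e-06). CURT1A (AT4G01150), which curves thylakoid membranes at the grana margins, read 7.87, 7.98 and 7.39 and then 6.19, 6.01 and 5.62 (-1.81, SE 0.20). Its relative CURT1D (AT4G38100) was higher by 0.73 on the log2 scale, a call lost without 48 h replicate 1 (0.65).

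PSB27, which takes part in photosystem II repair, had -1.71, LIL3:2, which holds chlorophyll-synthesis enzymes in the membrane, -1.56, and TROL, which anchors ferredoxin-NADP reductase, -1.28. CCB3 of cytochrome b6f assembly had -1.09, the geranylgeranyl reductase AT1G74470, which makes the tail of chlorophyll, -1.08, and ATAB2 of photosystem translation -1.06. The thylakoid calcium-sensing protein CaS fell by 1.01 and NdhU by 0.96 on the log2 scale. The call of CaS was lost with both replicate 3 arrays left out (-0.83, limma adjusted p = 0.0505). TAAC, which carries ATP and ADP across the thylakoid membrane, was higher by 0.93, and PAM68 of photosystem II assembly had 0.29 and did not pass. NADP-malate dehydrogenase (AT5G58330, -0.64) lost its call without 48 h replicate 2 (-0.61) or 3 (-0.60).

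Genes encoded on the plastid genome itself showed small differences. Their median control level was a log2 signal of 12.34, against 3.8 over all genes. Whether differences are compressed at such high signals was not tested. Of 63 measured genes 2 were lower and none higher, or 3.17% against 10.6% of all genes. With the replicate number as a block 5 were lower, psbM (-0.86), psbZ (-0.72) and rps2 (-0.63) in addition. In that fit 1142 of all 16550 genes were lower, a share close to that of the plastid genes. Of the 63 differences 56 were below 0, or 88.9%, against 56.8% of all genes, and the median was -0.18 against -0.06. ndhF, a subunit of the NADH dehydrogenase-like complex, read 11.62, 11.32 and 11.24 in control and 10.71, 9.84 and 9.89 at 48 h (-1.25, SE 0.24, limma adjusted p = 0.00372). The treated arrays of ndhF were spread more widely than the controls, with replicate 1 the highest in both groups. ndhH had -0.61 and lost its call without any one of 5 arrays, with values between -0.65 and -0.55, the exception being 48 h replicate 1. By role, the 10 NADH dehydrogenase-like subunits had a median of -0.46 and all lay below 0. The 18 photosystem genes had -0.08, the 6 cytochrome b6f genes -0.14, the 4 ATP synthase genes -0.17, the 13 ribosomal protein genes -0.18 and the 4 RNA polymerase genes -0.26. 

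Few genes of chlorophyll synthesis and breakdown were measured under these lists, and 3 of 12 passed, against 10.6% of all genes. Of 7 synthesis genes 1 fell, with a median of -0.06. It was CHLM, the magnesium-protoporphyrin methyltransferase, which read 7.16, 7.41 and 6.60 in control and 5.81, 5.98 and 5.71 at 48 h (-1.22, SE 0.20, limma adjusted p = 0.00163). PORB, which reduces protochlorophyllide, had 0.19 and GSA1 0.23, and neither passed. Of 5 genes listed for chlorophyll breakdown and senescence, NOL, a chlorophyll b reductase, fell by 0.74 on the log2 scale, and WRKY22 rose by 1.12. SAG29 (0.18), SAG101 (0.36) and WRKY6 (0.24) did not pass.

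Genes that leaves raise early after contact with microbes were higher in 3 of 6 cases and lower in none, with a median of 0.83. Among all genes 5.43% were higher and 5.22% lower. PUB22, a ubiquitin ligase that dampens immune signalling, read 5.56, 6.07 and 6.26 in control and 8.30, 8.57 and 8.32 at 48 h (2.44, SE 0.22, 5.41-fold, limma adjusted p = 1.46e-05). WRKY29 read 7.27, 7.70 and 7.66 and then 9.68, 9.55 and 9.85 (2.15, SE 0.17), and WRKY22 read 6.52, 7.06 and 6.42 and then 7.96, 7.91 and 7.51 (1.12, SE 0.20). The groups of these 3 genes were apart in every array. PUB24 (0.54, limma adjusted p = 0.0609, and 0.0499 with the replicate number as a block), PUB23 (-0.31) and the receptor-like kinase BIK1 (-0.13) did not pass. Of 7 WRKY factors 2 rose, the same WRKY29 and WRKY22. Of 16 ubiquitin ligases of the PUB and ATL families 2 rose, PUB22 and ATL4H, with a list median of -0.13, and with the block PUB24 was also higher and ATL8 (-0.87) and PUB25 (-0.76) lower. ATL4H read 2.45, 2.52 and 3.07 in control and 4.47, 4.69 and 5.30 at 48 h (2.14, SE 0.24). Replicate 3 of ATL4H was the highest in both groups.

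Of 2 hypoxia genes known by name, HRA1 (AT3G10040), a transcription factor that restrains the response to low oxygen, rose and the pyruvate decarboxylase PDC2 (0.18) did not pass. HRA1 read 3.0, 2.95 and 3.38 in control and 5.35, 4.53 and 5.11 at 48 h (1.88, SE 0.24, limma adjusted p = 0.000208). No measured salicylic acid gene passed, out of 2 (SAG101 and GRX480, 0.36 and 0.66). On the list of ethylene response and ERF-family factors 2 genes were measured, EIN3 (-0.07) and DREB2C (0.58), and neither passed. JRG21, a jasmonate-regulated dioxygenase, was the 1 of 7 jasmonate genes that rose, from 5.01, 6.47 and 5.85 to 8.01, 7.62 and 7.64 (1.98, SE 0.29). Its control arrays differed by over 1 log2 unit. The list median was 0.02, and 5.43% of all genes were higher.

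Enzymes and carriers of detoxification moved in both directions. Of 15 glutathione transferases, which join foreign or oxidised molecules to glutathione, 2 rose and 3 fell, with a median of 0.28. Among all genes 5.43% rose and 5.22% fell. GSTU20 read 2.90, 3.37 and 2.82 in control and 5.49, 4.46 and 5.05 at 48 h (1.97, SE 0.24, limma adjusted p = 0.000168). GSTU15 read 1.98, 3.09 and 1.67 and then 3.89, 3.95 and 3.40 (1.5, SE 0.30). GSTU18 had -1.28, a call lost without 48 h replicate 2 (-1.08, limma adjusted p = 0.0503), and none of the 3 falls held with each single array left out.

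Of 55 sugar transferases of the UGT family 4 rose and 1 fell, with a median of 0.03, so that the share called was close to that of all genes. UGT73B2, which glucosylates flavonols, had 1.16 (SE 0.25), and it was the 1 call of the 5 that held with each single array left out. UGT74B1, which completes the core of glucosinolates, had 0.76 and lost its call without 48 h replicate 2 (0.66). UGT73B5 had 0.97 (limma adjusted p = 0.0499) and lost its call without any one of 5 arrays, with values between 0.67 and 1.12.

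Of 26 cytochromes P450, most of them of the CYP71B family, 2 rose and 5 fell, with a median of -0.25. Among all genes 5.43% rose and 5.22% fell. With each single array left out, 1 rise and 2 falls held. The calls of CYP71B28 (0.63), CYP71B20 (-0.74), CYP71B21 (-0.87) and CYP71B26 (-0.95) did not. CYP71B29 rose from 7.53, 7.43 and 7.30 to 8.92, 8.86 and 8.58 (1.37, SE 0.17), while CYP78A9 had -1.04 (SE 0.17) and CYP71B35 -1.0 (SE 0.19). Close copies in such families can share probes, and their values are uncertain for that reason. The efflux carrier DTX50 (AT5G52050) was the only transporter of the MATE and ABC list known by name. It had -0.74, a call lost without control replicate 2 (-0.71), 48 h replicate 2 (-0.66) or 48 h replicate 3 (-0.65).

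Of 22 peroxidases and redox proteins 5 rose and 4 fell, against 5.43% and 5.22% of all genes, with a median of 0.06. All 5 rises and 2 of the 4 falls held with each single array left out. PRX52, a wall peroxidase, read 8.07, 8.27 and 8.74 in control and 9.69, 9.86 and 10.10 at 48 h (1.52, SE 0.20, limma adjusted p = 0.000325). Replicate 3 was the highest of both groups. Prx37 (1.43) and PRX71 (AT5G64120, 1.12), also secreted peroxidases, rose with the glutaredoxin GRXC2 (1.17) and the thioredoxin TY1 (0.92). TRXF2, a chloroplast thioredoxin that switches on Calvin cycle enzymes, fell from 5.40, 5.53 and 5.57 to 3.70, 4.05 and 4.21 (-1.51, SE 0.18). PRXCA, a peroxidase that releases hydrogen peroxide in the wall, had -1.47 (SE 0.33), with control arrays as wide apart as 2.1, 2.87 and 3.71. Its call was lost with both replicate 3 arrays left out (-1.11, limma adjusted p = 0.0503).

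Genes that act on carbohydrate and lipid reserves included several that rose. ICL, the isocitrate lyase of the glyoxylate cycle, read 3.38, 3.52 and 2.74 in control and 5.28, 5.90 and 4.86 at 48 h. Replicate 2 was the highest and replicate 3 the lowest in both groups, and the difference was 2.14 (SE 0.26, limma adjusted p = 0.000163). The other 2 measured genes of that list, SDP1 (-0.28) and AIM1 (close to 0), did not pass. Of 26 starch and sugar genes 6 rose and 3 fell, against 5.43% and 5.22% of all genes, with a median close to 0. The alpha-amylase AMY1 rose from 5.37, 5.72 and 6.30 to 6.85, 6.99 and 7.13 (1.19, SE 0.22), and the sucrose-phosphate synthase ATSPS4F rose by 1.08 on the log2 scale. The sugar carriers SWEET16 (-1.38, SE 0.24) and SWEET13 (-1.11, SE 0.24) and the starch branching enzyme SBE2.2 (-0.84) fell. Of the 6 rises 2 held with each single array left out, those of AMY1 and ATSPS4F, and all 3 falls did.

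Nitrogen carriers also moved both ways, with 4 of 14 higher, 1 lower and a median of 0.06. Among all genes 5.43% were higher and 5.22% lower. NPF6.4 (AT3G21670), a nitrate transporter of the NRT1 family, read 5.95, 5.78 and 5.91 in control and 4.06, 3.64 and 3.31 at 48 h (-2.21, SE 0.20, limma adjusted p = 1.25e-05). The high-affinity nitrate transporter NRT2.5 rose from 4.31, 4.06 and 4.01 to 5.95, 5.87 and 5.34 (1.59, SE 0.20). GTR2, which carries glucosinolates, read 9.89, 10.08 and 10.59 and then 10.96, 11.33 and 11.29 (1.01, SE 0.20), and it was also the 1 riser of 4 glucosinolate genes. Of the 4 rises among nitrogen carriers only 2, those of NRT2.5 and GTR2, held with each single array left out, as did the fall of NPF6.4. In a group of 5 purine and ureide breakdown enzymes put together after their values were seen, the AMP deaminase FAC1 (0.95), the ureidoglycine aminohydrolase UGLYAH (0.89) and the allantoinase ALN (0.83) rose. AAH (-0.09) and TTL (-0.03) did not pass, and the call of ALN was lost without 48 h replicate 1 (0.71).

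Amino acid breakdown genes were lower in 3 of 9 cases, against 5.22% of all genes. None of the 3 calls held with each single array left out. They were the asparaginase ASPGB1 (-1.09, and -0.73 without control replicate 3), the methionine gamma-lyase MGL (-0.95, and -0.73 without control replicate 2) and MCCB of leucine breakdown (-0.76, and -0.60 without control replicate 1). The list of 11 autophagy genes had a median of -0.02, and 5.43% of all genes were higher. ATG8D (0.75) and ATG8G (0.70), both ubiquitin-like proteins of the autophagosome, were the members called higher. These calls were lost without control replicate 3 (0.54 for ATG8D) and without control replicate 1 (0.53 for ATG8G), and each also without other single arrays.

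Some genes of wall loosening fell. Of 34 expansins and xyloglucan-modifying enzymes 5 were lower and 1 higher, against 5.22% and 5.43% of all genes, with a median of -0.20. The calls of XTH16 (-0.90) and EXLB1 (-0.73) did not hold with each single array left out. Of the 34 genes 23 had a control mean under a log2 signal of 4, where 66.0% of all genes lay below 0, and 29 of the 34 did. XTH33 read 5.60, 4.80 and 5.10 in control and 3.93, 3.78 and 3.48 at 48 h (-1.44, SE 0.22, limma adjusted p = 0.00103). EXLA1 read 7.56, 7.20 and 7.21 and then 5.77, 6.06 and 5.91 (-1.41, SE 0.17), and EXPA8 had -1.24 (SE 0.20). EXPA4 was higher by 0.75. Among 39 pectin and other wall enzymes 1 rose and 3 fell, with TBL37 at -1.07, CSLC04, which makes the xyloglucan backbone, at -0.77 and TBL40 (AT2G31110) at 0.92. The other fall, that of PMEPCRF (-0.62), did not hold with each single array left out. With the block 5 of the 39 were lower, BGAL16 (-0.77) and TBL42 (-0.61) in addition, against 1142 of all 16550 genes. Of 9 tubulin and actin genes 2 fell, ACT11 from 6.35, 5.88 and 5.81 to 4.90, 4.10 and 4.30 (-1.58, SE 0.24) and TUB6 from 6.89, 6.84 and 6.91 to 5.56, 5.81 and 5.48 (-1.26, SE 0.16).

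Of 24 beta-glucosidases, which release sugars from stored conjugates, 4 fell and none rose, against 5.22% and 5.43% of all genes. The list median was -0.21. BGLU27 read 5.18, 5.96 and 5.90 in control and 3.29, 3.18 and 3.16 at 48 h (-2.47, SE 0.20, limma adjusted p = 7.95e-06). BGLU31 read 5.57, 5.78 and 7.09 and then 3.87, 3.53 and 3.89 (-2.38, SE 0.33), with its highest control in replicate 3. BGLU45, which acts on lignin precursors, read 6.87, 7.54 and 7.30 and then 5.30, 5.21 and 5.62 (-1.86, SE 0.21). These 3 calls held with each single array left out. The remaining fall, that of BGLU41 (-1.08), lost its call without control replicate 1 (-1.08) or 3 (-0.82) and without 48 h replicate 1 (-0.97) or 2 (-1.06). Of the 24 genes 13 had a control mean under a log2 signal of 4.

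Chaperone genes known by name fell or did not pass, with 2 of 5 on the heat shock list lower, against 5.22% of all genes. Of 5 on the heat shock list, ROF2 (AT5G48570), a prolyl isomerase that binds a heat shock factor, read 6.01, 5.42 and 5.92 in control and 3.49, 3.89 and 4.13 at 48 h (-1.95, SE 0.21, limma adjusted p = 7.64e-05). Hsp70-2 read 6.45, 6.77 and 6.88 and then 4.73, 5.13 and 5.92 (-1.44, SE 0.26), and replicate 3 was the highest in both groups. BIP1 (0.34), HSP93-III (0.18) and ATHSP22.0 (0.16) did not pass, so that the list median was 0.16. Among 6 co-chaperones of the Hop and Fes1 families, grouped after their values were seen, Hop3 (-1.67, SE 0.22) and Fes1A (-1.45, SE 0.18) fell, while Hop1 (-0.02), Hop2 (0.20), Fes1B (-0.03) and Fes1C (-0.27) did not pass.

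Of 19 auxin genes GH3.3 alone passed, against 10.6% of all genes, with a list median of -0.20. Its relatives GH3.1 (-0.39), GH3.9 (-0.41) and GH3.17 (-0.56) did not pass. The auxin list member HAT2 had 1.09 (limma adjusted p = 0.0561, and 0.00511 with the replicate number as a block), and its groups overlapped. Of 13 abscisic acid and cold genes AtLEA4-1 fell (-1.27, SE 0.28), with a list median of -0.03, and its call was lost with both replicate 3 arrays left out (-0.85). GIGANTEA (GI), a clock protein, rose from 8.35, 7.89 and 7.69 to 9.26, 9.07 and 8.78 (1.06, SE 0.21), while HYH (-0.80, and adjusted p = 0.0432 in limma with the block) and PIF7 (-0.15) of the same list did not pass.

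The other lists had few called members, and their shares lay on both sides of the 10.6% called among all genes. Of 109 small secreted peptides 2 rose and 2 fell, led by LCR37 (-1.98, SE 0.29) and LCR54 (1.52, SE 0.27), and 95 of them had control means under a log2 signal of 4. LCR68 (0.80) lost its call without 48 h replicate 1 (0.71), among others, and so did RALFL22 (-0.73). Of 19 calcium genes CML37 fell (-0.87), of 11 cell cycle genes the replication factor PRL rose (0.67), and of 8 aldehyde dehydrogenases ALDH11A3 fell and ALDH2C4 rose (0.85). The calls of ALDH2C4 (0.72 without 48 h replicate 1), of the NAC factor NAC014 (0.74, and 0.57 without control replicate 2) and of HCT, the 1 riser of 6 phenylpropanoid genes (0.67, and 0.46 without control replicate 3), were not kept with each single array left out.

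**Figure D5:**
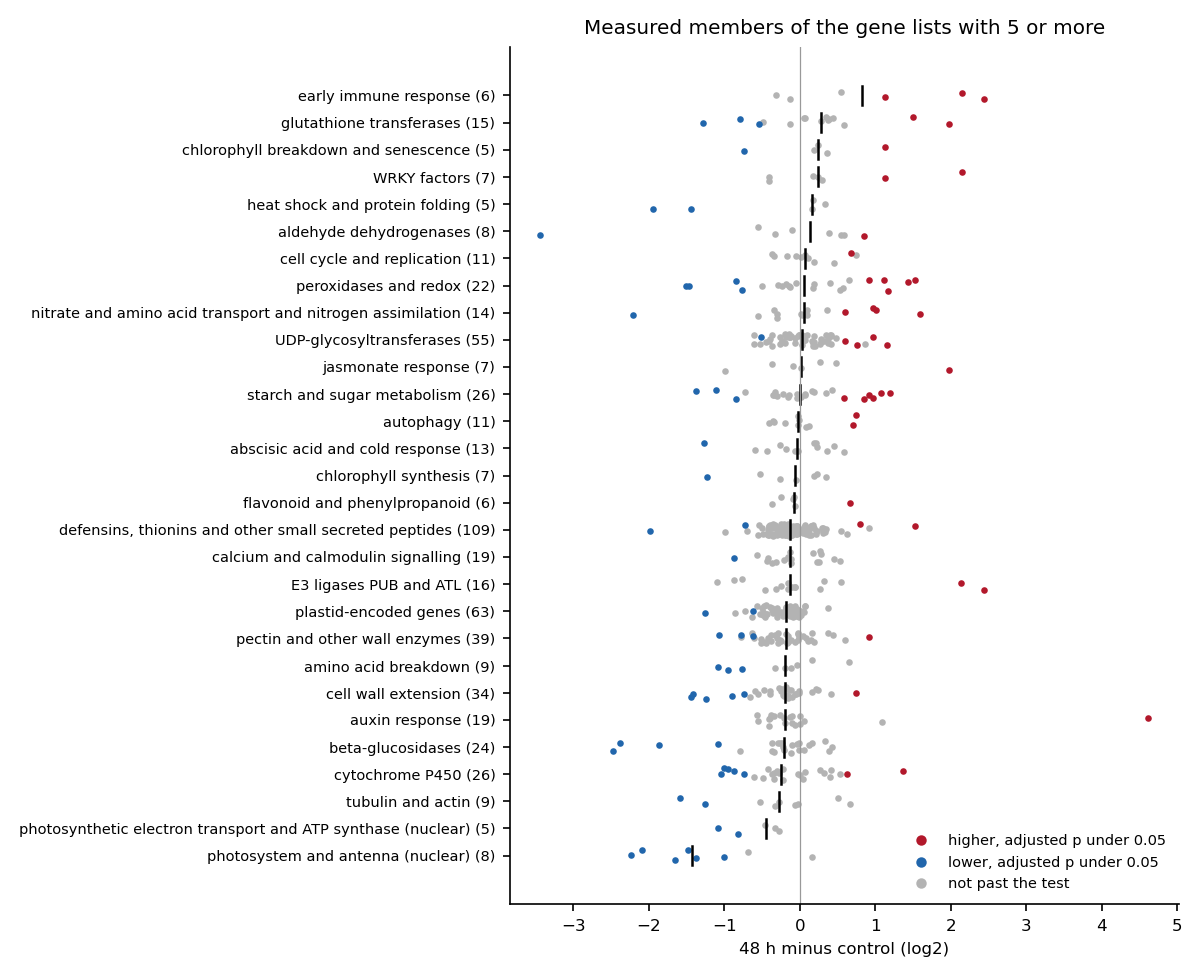
Log2 difference between 48 h and control (x axis) of every measured member of the 29 lists with 5 or more measured members, ordered by list median (black bars), with the number of members in parentheses; red and blue points were higher and lower in limma at an adjusted p under 0.05. The photosystem and antenna list has the lowest median (-1.43) and the early immune list the highest (0.83).

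Across the 39 lists with a measured member, 602 different genes were measured, of which 42 were higher and 58 lower. That is 16.6% of them, against 10.6% of all genes and 13.2% of the genes with a symbol. Of the 100 calls 63 held with each single array left out. The lists were drawn up with earlier results of these data known, so the 16.6% is no independent result. With the replicate number as a block 119 members were called, 22 gained and 3 lost (UGT71C4, UGT71C5 and ATGSTF13). Calls also rose over all 16550 genes in that fit, to 1170 higher and 1142 lower. The gains included PDF1.2b (-1.0), TUBG1 (0.67), ETFALPHA (0.66), ALDH7B4 (0.58), BGLU33 (-0.79) and the small peptides CLE44 (0.62), LCR69 (0.91) and RALFL32 (-0.70), which did not pass without it. In 2 groups put together after their values were seen, RNA polymerase subunits rose in 2 of 17 cases and AGAMOUS-like MADS-box factors moved in 5 of 65, or in 9 with the block. NRPC1 (1.0) and NRPA1 (0.81) are the largest subunits of RNA polymerases III and I, and the call of NRPA1 was lost with both replicate 3 arrays left out (0.75). AGL19 (1.55) and AGL42 (1.04) rose, AGL104 (-1.38) and AGL24 (-0.91) fell, and PHE1 (-1.04), whose groups overlapped, lost its call without 48 h replicate 2 (-0.82), among others.

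Markers of the cell types in a leaf were few among the named genes. The 2 mesophyll markers of 10 that were measured, PSAN and RCA, both fell, and their summed log2 signal went from between 17.9 and 19.0 in control to between 15.0 and 15.9 at 48 h. Both are also photosynthesis genes. Of 10 guard cell markers 2 were measured, with summed signals of 8.86 to 9.39 and of 9.06 to 10.2. They differed in direction: FAMA (FMA) was higher by 0.62, while BLUS1 (AT4G14480) had -0.21 and did not pass. The phloem marker SWEET11, 1 of 11, had 0.07, and the epidermal markers FDH (0.32) and TRY (-0.36), 2 of 13, did not pass. The 3 measured root markers of 13, EXPA18, EXPA7 and PYK10, had mean control signals of 2.28, 2.68 and 3.27 and did not pass. PAP85, the 1 measured seed marker of 10, read 6.66, 6.66 and 6.44 in control and 3.67, 4.75 and 4.19 at 48 h (-2.38, SE 0.26). The part of cell composition in the other results was not tested.

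The 48 h leaves were also set against the 6 h leaves, to see which of these genes differed between the times. Control arrays enter this comparison only through the estimate of the spread. The named genes were chosen by the same 48 h arrays, so these counts are descriptions. Of all genes 20.3% differed between the times, 9.61% higher and 10.7% lower at 48 h than at 6 h, and of the 898 genes higher than control 28.1% were also higher than at 6 h. Of the 15 largest rises 9 were higher at 48 h than at 6 h, and 6 did not pass the test. AT1G12805 had mean log2 signals of 2.17 in control, 3.43 at 6 h and 6.65 at 48 h, with 3.22 between the times (limma adjusted p = 7.68e-07). AT3G29970 had 2.79, 7.17 and 9.53 in the same order, with 2.36 between the times (adjusted p = 1.04e-05). Of the 864 genes lower than control 29.5% were also lower than at 6 h, and of the 15 largest falls 6 were lower and 2 higher. AT5G47610 had 7.13, 5.12 and 2.53, with -2.58 between the times (adjusted p = 1.27e-06), and AT2G05310 had 4.77, 4.48 and 2.17, with -2.31 (adjusted p = 1.29e-05). AT2G41250 was higher at 48 h than at 6 h, with 8.31, 4.32 and 5.72 and 1.41 between the times (adjusted p = 0.000197).

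Several genes of photosynthesis and photorespiration were lower at 48 h than at 6 h, among them TAPX (-1.04, limma adjusted p = 0.000241), HPR (-1.39, adjusted p = 8.3e-05) and LHB1B2 (-0.95, adjusted p = 0.00388). ATL4H was higher at 48 h than at 6 h by 1.58 (adjusted p = 0.000375), UGT73B2 by 1.67 (adjusted p = 0.000285) and AMY1 by 1.77 (adjusted p = 6.15e-05). GSTU20 and GSTU15 differed in opposite directions, GSTU20 by -1.46 (adjusted p = 0.000678) from 6.46 at 6 h, and GSTU15 by 1.67 (adjusted p = 0.00145) from 2.07. The times differ both in exposure to BrvC and in hours in the dark.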

How the data were processed

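Per the labels' protocols, total RNA of 10 to 15 pooled leaves per sample was amplified, labelled with biotin and hybridised to 1 Affymetrix array. The authors deposited log2 values per array entry, made with RMA, which normalizes by quantiles and compresses differences between low signals. RMA, oligo and limma are named, with no version, in the submitters' processing notes. The genome build used by the authors is not given in the sources used here. The range of values (0.298 to 13.9) fits a log2 scale.

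Of the 38408 entries, 759 paired with several genes and 20927 not listed were left out of the comparison of genes. Where a gene had several entries (146 genes), the one with the highest mean over the 9 arrays was kept, and 172 were left out. No filter on level was used. Symbols and synonyms came from the RefSeq table of assembly TAIR10.1, in which 16411 of the 16550 genes were found. Sequences were not analysed here. The linear model held a mean for each group over the 9 arrays and used lmFit and eBayes of limma 3.58.1 (R 4.3.3), and p-values were adjusted over all genes. The p-values measure the spread between these samples, which the labels call biological replicates, and 3 arrays per group limit the precision. The fit was run on simulated data in which the arrays varied independently. That run cannot test the effect of deviations shared by arrays of the same replicate number.

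The members and the 42 gene lists were chosen with earlier results of these data known. List members are genes the reference table names, so that genes known by locus alone are not counted in the lists, and 3 lists (cytosolic ribosomal proteins, plastid translation and mitochondria-encoded genes) had no measured member. Named were the 15 largest rises and the 15 largest falls among called genes whose groups did not overlap, and the 3 called members of each list with the largest difference. Other list members, and 5 groups built from gene names, were named after their values were seen.

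Samples were grouped by their titles. Deviations from the group means of same-numbered control and 48 h arrays correlated at 0.302, 0.242 and 0.539 across genes, and those of different numbers at -0.362 to 0.124. By this check the numbers pair these groups in the data, although no label says what they stand for. The alternatives were the replicate number as a block, the 2 groups alone, other scalings, filters, entries and thresholds, array weights, and each array left out in turn.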

Additional observations from a re-analysis of the deposited data

Results flagged for a closer look

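For 16 of the 122 named genes the difference from control was called in opposite directions at 48 h and at 6 h, with the difference between the times called as well. The same held for 126 of all genes, 0.761% of those tested and 7.15% of those called at 48 h. The comparisons share their control arrays, so the direct difference between 48 h and 6 h was tested beside them. In that test control arrays enter only through the estimate of the spread. By that test 71 of the 122 named genes differed between the times (limma, Benjamini-Hochberg adjusted p under 0.05), against 20.3% of all genes and 49.1% of the genes called at 48 h. The named genes were chosen by their 48 h values, which this difference uses, so the counts are descriptions.

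3 genes were higher than control at 48 h and lower at 6 h. They were AT5G26280 (3.41 at 48 h and -1.40 at 6 h, log2), AT4G39675 (3.38 and -2.04) and the wall peroxidase PRX52 (1.52 and -1.42).

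The other 13 were lower at 48 h and higher at 6 h. In photosynthesis they were SBPASE (-0.83 at 48 h and 1.58 at 6 h), NdhL (-0.82 and 2.48), the plastid-encoded ndhF (-1.25 and 0.81) and ndhH (-0.61 and 0.95), CURT1A or AT4G01150 (-1.81 and 1.37), LIL3:2 (-1.56 and 0.82), CaS (-1.01 and 0.83), CCB3 (-1.09 and 0.77) and NdhU (-0.96 and 1.04). In the wall they were XTH33 (-1.44 and 1.89), EXPA8 (-1.24 and 2.03), TBL37 (-1.07 and 1.39) and CSLC04 (-0.77 and 1.01). The 48 h calls of SBPASE, ndhH and CaS were lost when arrays were left out.

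Entries of the value table paired with no gene were used in no comparison of genes. In a fit to all 38408 entries 1528 of these 20927 entries were higher and 828 lower at 48 h, or 11.3%, with 64.9% of the calls higher. Among the 17481 entries with 1 or more listed genes 746 were higher and 722 lower, or 8.4%, with 50.8% of the calls higher. What the unlisted entries detect is not known here.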

How the results depend on the processing

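No named gene changed direction in any of 17 alternative settings, and the 30 largest rises and falls kept their calls in all that hold them. With the replicate number as a block, 1170 genes were higher and 1142 lower in the 2 groups and 1075 and 1059 over all 9 arrays, 97.3% of the original calls remained in the first of these fits, and no named gene lost its call. The pairing raised the called list members from 100 to 119 in the 2 groups and to 117 over all 9 arrays, so that some members that did not pass do so with the block. Fitting the 2 groups alone without the block gave 619 and 637 genes. Leaving out each array in turn gave 627 to 1059 higher and 629 to 1079 lower genes and kept 67.8% to 86.5% of the calls. It kept 108 to 116 of the 122 named genes and gave 71 to 112 called list members. Leaving out both replicate 3 arrays, added after seeing the data, gave 816 and 792 genes and kept 75.0% of the calls. It lost 14 named calls, of which 4 (AtLEA4-1, PRXCA, CaS and NRPA1) were lost in no setting that left out a single array. Adjusted p under 0.01 left 433 higher and 488 lower genes, and at least 2-fold differences 375 and 433. Over all entries, named or not, 2274 were higher and 1550 lower, so that the share of higher calls was 59.5% against 51%, with more entries tested. Centring, renewed quantile normalization, an intensity trend, array weights, a filter on low genes and the lowest entry per gene gave 842 to 1016 higher and 826 to 891 lower genes. Signals near the low end of the log2 scale limit what can be seen of the small secreted peptides, 95 of 109 of which had control means under 4.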

Other observations

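Replicate 3 of both groups shared genes that stood at least 1 log2 unit from both other arrays of their group. In control 298 genes did so in replicate 3 and at 48 h 109. In both groups 38 of them lay above and 5 below, none in opposite directions. None of the 38 stood that far above both other arrays in replicate 3 at 6 h, and 4 of the 43 were called between the groups. AT2G38430 read 3.06, 3.0 and 5.85 in control, 2.95, 3.10 and 5.20 at 48 h, and 2.70, 3.3 and 3.02 at 6 h. AT5G41950 read 8.15, 8.25 and 10.13 in control and 8.23, 8.86 and 10.30 at 48 h. BRK1, a subunit of the complex that starts actin branching, read 7.41, 7.56 and 8.95 in control and 7.35, 7.67 and 9.14 at 48 h. AT3G02080 was low in replicate 3, with 8.58, 8.64 and 6.96 in control and 8.13, 8.40 and 6.61 at 48 h. The part of these genes in the comparison was not tested beyond leaving out the arrays.

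The share of genes with the same call was higher among the measured chromosomal neighbours of called genes than among all genes, although most neighbours were not called. Of 1105 measured neighbours of higher genes 7.96% were higher, against 5.43% of all genes, and of 1076 neighbours of lower genes 10.0% were lower, against 5.22%. The longest run of higher genes went from AT3G27210 to AT3G27240, with differences of 1.27, 1.84, 1.19 and 0.65. The longest run of lower genes held ALDH11A3 (-3.44), AT2G24280 (-0.81), AT2G24285 (-2.09) and AT2G24290 (-0.88). AT5G64100 (1.54), AT5G64110 (2.52) and PRX71 (AT5G64120, 1.12) formed a run of 3 higher genes. Neighbouring genes can be close copies that share probes, and this was not tested.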
